A study of Mus musculus with 138 samples.

Results

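The genes that write, maintain, remove and protect DNA methylation were followed in mouse embryos at the 2-cell stage, in which the chromatin remodeller SMARCA5 was missing from the egg or was depleted after fertilization. They were the 10 genes Dnmt1, Dnmt3a, Dnmt3b, Dnmt3l, Uhrf1, Tet1, Tet2, Tet3, Dppa3 and Tdg, chosen by name, out of 25900 genes in the deposited tables, and each was found once. Polyadenylated RNA was measured per embryo with the RNA arm of scNMT-seq, a protocol that can also profile methylation and accessible chromatin. Only the RNA was used here.

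The wild-type group was labelled Smarca5 +/+ (22 libraries), and the maternal deletion group was labelled Smarca5 +/- (mat KO) (28 libraries). The latter are embryos from eggs in which the gene was deleted, of females mated to wild-type males, so they carry a paternal Smarca5 copy. The titles of both groups carry the words "matKO females", and the driver of the deletion is not given in the sources used here. The other experiment used wild-type embryos and TrimAway, in which an injected antibody and the ubiquitin ligase TRIM21 direct a protein to degradation. Its groups were a-Smarca5 (31 libraries, called anti-SMARCA5 below), IgG (20 libraries) and No injection ctrl (15 libraries, called uninjected). All 5 groups were 2-cell embryos, no age was given, and TrimAway libraries were made at least a day after injection. The design text calls the collections technical replicates, each from a pool of embryos of several matings or injections, so p-values measure the spread between these embryos, some of which may share parents.

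Total counts of the 116 libraries kept ranged from 109007 to 12004992, with a median of 1469197. Smarca5 RNA had a median of 328 CPM (counts scaled to the library's size, with edgeR's TMM factor) in wild type and 95.6 CPM after maternal deletion, with a log2 change of -2.06 (SE 0.31, adjusted p = 2.63e-07 in edgeR). The library labelled maternal deletion in well A04 of replicate 2 went against its label, with 266 CPM of Smarca5 and 18.7 CPM of the oocyte gene Gdf9, against a group median of 4669.5 CPM for Gdf9. The wild-type libraries in wells G05 and H05 of replicate 2 stood apart in the other direction, with 159.8 CPM and 151 CPM of Smarca5 and 653 CPM and 253 CPM of Gdf9. These 3 libraries were kept, and results are also given without them. In replicate 1, the deletion library in well H09 had 340.7 CPM of Smarca5, the only one of its group above the wild-type median, with 137 CPM of Tet1 and 1139 CPM of Gdf9, the lowest Gdf9 of that replicate. The wild-type library in well C07 of replicate 1 had 181 CPM of Smarca5 and 243 CPM of Gdf9, close to H05. TrimAway acts on protein, so Smarca5 RNA is no measure of that depletion. Trim21 RNA was above 3 counts in 30 of 31 anti-SMARCA5 libraries, the exception being well C02 of replicate 2 with 0 counts, in 0 of the 10 IgG libraries of replicate 1 and in 8 of the 10 IgG libraries of replicate 3.

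DNA methylation marks cytosines, mostly in CG pairs. DNMT3A and DNMT3B place new marks, DNMT3L is a cofactor without catalytic activity that stimulates them, and DNMT1 copies marks to the new strand at replication, brought there by UHRF1. TET1, TET2 and TET3 oxidize methylated cytosine, the thymine DNA glycosylase TDG cuts out the more oxidized forms, and DPPA3 (also called STELLA or PGC7) protects the maternal genome from TET3 and restrains UHRF1. The egg supplies much of this machinery, including an oocyte form of DNMT1, and TET3 is the TET enzyme known for acting in the fertilized egg, before the embryo's own genome is switched on at the 2-cell stage.

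Promoter sequences of the 5 members that changed after maternal deletion and have an entry in the RefSeq table are shown because these genes are the ones the results turn on and they moved in opposite directions. Of the 10 members, 9 had 1 or more 300-base windows (250 bases before to 50 after an annotated start, build GRCm38.p6), 16 windows in all. Capitals mark GGGCGG and CCAAT on either strand, 5' to 3' along the gene's own strand.
Uhrf1, first start, chr17:56303087-56303386, plus strand: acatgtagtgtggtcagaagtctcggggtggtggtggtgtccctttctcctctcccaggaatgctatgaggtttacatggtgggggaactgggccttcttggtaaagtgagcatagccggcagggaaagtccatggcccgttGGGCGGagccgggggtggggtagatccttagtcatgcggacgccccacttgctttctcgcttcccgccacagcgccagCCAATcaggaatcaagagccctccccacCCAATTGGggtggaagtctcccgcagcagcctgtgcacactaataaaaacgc
Uhrf1, other start, chr17:56304063-56304362, plus strand: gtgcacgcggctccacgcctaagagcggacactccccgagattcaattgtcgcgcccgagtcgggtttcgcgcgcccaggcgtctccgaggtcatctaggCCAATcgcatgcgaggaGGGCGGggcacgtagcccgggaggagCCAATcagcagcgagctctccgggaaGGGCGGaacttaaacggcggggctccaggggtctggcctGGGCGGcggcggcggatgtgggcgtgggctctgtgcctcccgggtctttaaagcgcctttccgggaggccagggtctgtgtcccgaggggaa
Dnmt3l, first start, chr10:78042037-78042336, plus strand: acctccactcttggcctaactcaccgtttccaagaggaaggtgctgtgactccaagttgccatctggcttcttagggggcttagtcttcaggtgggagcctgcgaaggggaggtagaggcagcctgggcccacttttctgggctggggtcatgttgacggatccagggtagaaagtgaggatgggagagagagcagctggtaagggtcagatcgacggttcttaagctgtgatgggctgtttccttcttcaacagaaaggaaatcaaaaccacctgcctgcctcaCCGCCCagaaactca
Tet3, chr6:83441629-83441928, minus strand: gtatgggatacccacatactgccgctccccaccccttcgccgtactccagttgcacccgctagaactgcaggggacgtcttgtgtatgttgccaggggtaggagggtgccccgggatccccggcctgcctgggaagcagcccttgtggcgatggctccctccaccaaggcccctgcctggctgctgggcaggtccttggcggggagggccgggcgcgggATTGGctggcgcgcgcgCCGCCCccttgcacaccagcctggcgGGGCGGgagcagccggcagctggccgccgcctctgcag
Tet2, chr3:133544341-133544640, minus strand: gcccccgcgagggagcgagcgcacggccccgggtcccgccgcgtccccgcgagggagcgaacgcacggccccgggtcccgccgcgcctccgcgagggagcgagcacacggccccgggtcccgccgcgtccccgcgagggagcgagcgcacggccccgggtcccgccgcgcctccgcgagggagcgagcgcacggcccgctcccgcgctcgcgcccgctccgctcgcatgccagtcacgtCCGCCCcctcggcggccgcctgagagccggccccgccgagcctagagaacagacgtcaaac
Tet1, chr10:62887275-62887574, minus strand: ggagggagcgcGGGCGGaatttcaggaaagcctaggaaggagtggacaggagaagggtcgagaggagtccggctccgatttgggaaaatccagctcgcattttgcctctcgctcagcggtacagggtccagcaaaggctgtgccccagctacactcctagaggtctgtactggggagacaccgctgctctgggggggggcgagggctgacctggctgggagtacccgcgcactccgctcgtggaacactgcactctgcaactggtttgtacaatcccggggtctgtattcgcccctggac

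The windows ranged widely in their content of CG pairs. Tet2 held 57 CG pairs, more than 99.8% of the 32851 windows of all genes in the table, whose median was 7 with quartiles of 3 and 20. The Uhrf1 windows held 12 and 33, Tet3 held 22, Tet1 held 17, and the 3 windows of Dnmt3l held 6, 4 and 3. Among members that did not pass the test, the Dnmt3a windows held 46, 47 and 18 CG pairs and the Dnmt3b window held 30. Dnmt1 had 3 annotated starts with 33, 12 and 2 CG pairs, and gene counts cannot tell transcripts from these starts apart. GGGCGG was present in every printed window and in 35.7% of all windows. The 3 Dnmt3l windows held 1, 2 and 0 matches. Members that did not pass the test also held it, with 6, 7 and 2 matches in Dnmt3a, 4 in Dnmt3b and 2, 0 and 0 in Dnmt1. CCAAT was present in both Uhrf1 windows and in the Tet3 window, against 37.4% of all windows. The printed Dnmt3l, Tet2 and Tet1 windows had none. Among windows not printed, those of Dnmt1 held 3, 0 and 5 matches and that of Tdg held 1. In the first Uhrf1 window a CCAAT and its reverse complement overlap. CACGTG was found in 1 Dnmt3l window that is not printed, in 1 Dnmt3a window and in the Tdg window (7.15% of all windows), AGGTCA in 1 Uhrf1, 1 Tet1 and 1 Dnmt3a window (16.3%), and TATAAA in none of the 16 windows of members (13.6%). These matches describe letters in the windows and nothing about binding.

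In embryos that were not perturbed, Dppa3 RNA was by far the most abundant of the 10 per length. Per kilobase of annotated exon, its median was 3157 CPM in wild type (lowest 1655, highest 12470) and 1260 CPM in uninjected embryos (lowest 472, highest 2041). The 2 control groups come from separately counted tables on different lanes and were not compared by a test. Uhrf1 came next, with a median of 10.2 CPM per kilobase in wild type and 16.6 in uninjected embryos. Tet3, Tet1, Dnmt1 and Dnmt3l followed in wild type with medians of 7.83, 7.54, 7.50 and 6.61 CPM per kilobase, and the ranges of these 4 genes overlapped, as they did with Uhrf1. Dnmt3a had 4.28 and Dnmt3b 2.12 CPM per kilobase in wild type, Tet2 had a median of 0, and Tdg was listed at 0 in 21 of 22 wild-type libraries. Uninjected embryos gave the order Dppa3, Uhrf1, Dnmt3l, Tet3, Tet1, Dnmt1, Dnmt3a, Dnmt3b, Tet2 and Tdg, with neighbours from Uhrf1 to Tet2 again overlapping in range. With the length of the longest transcript in place of all exons, Dnmt3l moved from position 6 to 4 in wild type and Tet1 from 4 to 6, and Dnmt3l moved to position 2 in uninjected embryos.

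**Figure D1:**
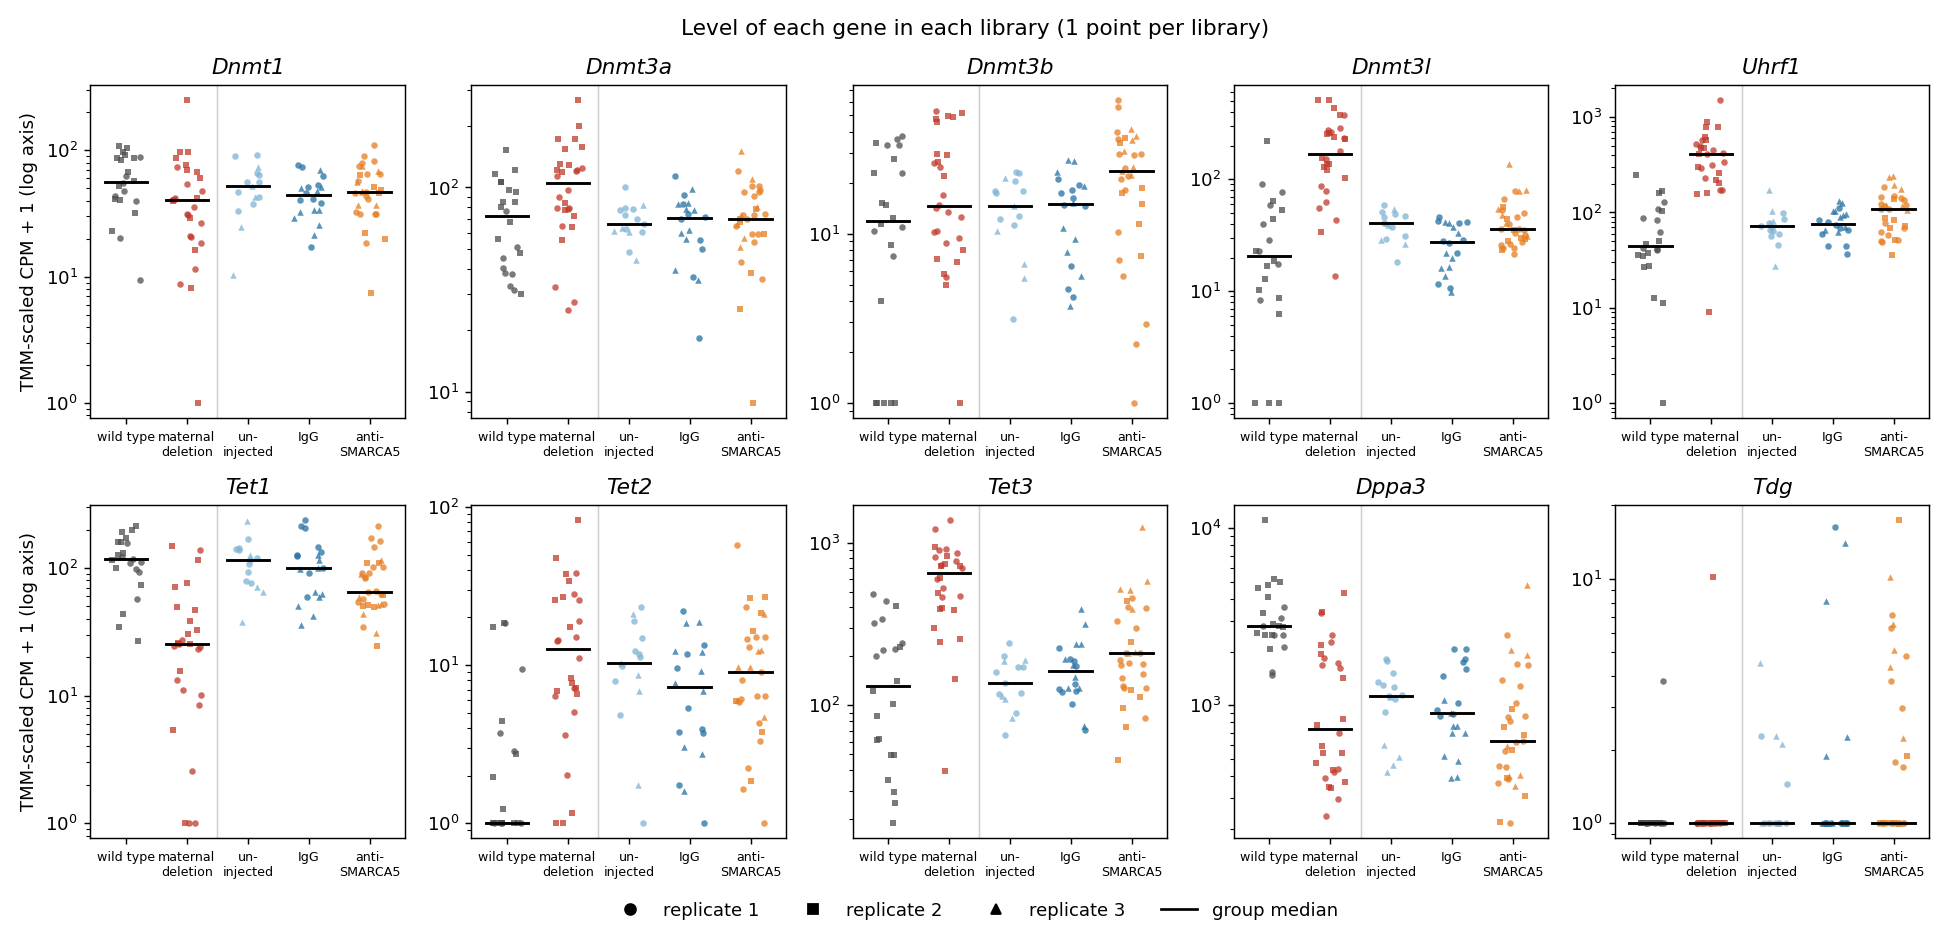
Level of each of the 10 genes in each of the 116 libraries, as TMM-scaled CPM plus 1 on a log axis, by group; marker shapes give the replicate number, lines the group median, and a grey line separates the 2 experiments. Most maternal deletion libraries lie above the wild-type median for Uhrf1, Dnmt3l and Tet3 (medians 411 against 43.5, 167 against 19.7 and 650.2 against 131 CPM). For Tet1 and Dppa3 most lie below the wild-type median.

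After maternal deletion of Smarca5, the 9 members that passed the filter on low counts did not move as a block: 4 rose, 2 fell and 3 did not pass the test. Uhrf1, Dnmt3l, Tet2 and Tet3 rose, Tet1 and Dppa3 fell, and Dnmt1, Dnmt3a and Dnmt3b did not pass an edgeR adjusted p of 0.05. Over all 8518 genes tested, 56.6% passed, 30.3% higher and 26.4% lower, so 6 of 9 is read against a background in which more than every second gene changed. The members' median log2 fold change was 0.42, beside 0.18 over all genes. With scaling by library totals alone the median of all genes was -0.04, and each of the 6 members kept its direction and its call. Without the 3 libraries that stood apart, 5 of the 8 members then tested passed in the same directions, Tet2 no longer reaching the filter on low counts. Leaving out H09 and C07 as well, which was added after the data had been seen, gave the same 5 calls, with log2 changes of 3.06 for Uhrf1, 3.09 for Dnmt3l, 2.13 for Tet3, -2.20 for Tet1 and -1.64 for Dppa3. The wells left out were picked for their Smarca5 and Gdf9 levels, and Gdf9 varied with Uhrf1 across libraries (r = 0.759). Calls kept without them are therefore no independent check. A library holds a whole embryo and CPM is a share of its RNA, so more RNA of a gene and less RNA of other genes cannot be told apart.

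Uhrf1 (ENSMUSG00000001228, GRCm38 chromosome 17, positions 56303321 to 56323486), which brings DNMT1 to newly copied DNA, showed the largest difference. Its lowest, median and highest levels were 0, 43.5 and 247 CPM in wild type and 8.01, 411 and 1507 CPM after deletion. All but 1 of the 28 deletion libraries lay above the wild-type median, and 20 lay above the highest wild-type library. The exception was the A04 library, at 8.01 CPM, and the highest wild-type value came from G05. The log2 fold change was 2.59 (SE 0.37, adjusted p = 1.38e-07). It was 2.68 in replicate 1 alone, 2.53 in replicate 2 alone (a sequencing lane each), and 2.93 without the 3 libraries that stood apart.

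Dnmt3l (ENSMUSG00000000730, chromosome 10, positions 78041947 to 78063622), the cofactor of de novo methylation known for its role in the growing oocyte, moved in the same direction. It ranged from 0 through a median of 19.7 to 220.3 CPM in wild type and from 12.8 through 167 to 509.6 CPM after deletion. The groups overlapped, with 13 of 28 deletion libraries above the highest wild-type library, which was again G05, and 27 above the wild-type median. Its log2 change was 2.37 (SE 0.43, adjusted p = 9.23e-06), 1.94 in replicate 1 alone and 2.72 in replicate 2 alone, and 2.87 without the 3 libraries that stood apart. Dnmt3l shares 1664 bases of its span with Aire on the opposite strand, and whether counting used strand is not given in the sources used here.

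Tet3 (ENSMUSG00000034832, chromosome 6, positions 83362373 to 83441678), the TET enzyme of the fertilized egg, had the highest level per length of the 3 TET genes after deletion, with medians of 38.9 CPM per kilobase against 1.58 for Tet1 and 0.692 for Tet2. Wild-type libraries spanned 17.9 to 482 CPM around a median of 131, and deletion libraries spanned 38.6 to 1372 CPM around a median of 650.2. The lowest deletion value was that of A04, and 18 of 28 deletion libraries exceeded the highest wild-type library. In edgeR the log2 change was 1.81 (SE 0.32, adjusted p = 7.79e-06). The replicates differed in level, with wild-type medians of 280.3 CPM in replicate 1 and 60.9 CPM in replicate 2 and deletion medians of 769 and 394 CPM, and the log2 fold change within them was 1.40 and 2.18.

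Tet2 (ENSMUSG00000040943, chromosome 3, positions 133463679 to 133544390) rose from a level near the limit of detection. In wild type it was listed at 0 in 12 of 22 libraries, had a median of 0 and reached 17.5 CPM. After deletion it was at 0 in 2 of 28 libraries, with a median of 11.7 and a highest value of 81.6 CPM. Its log2 change was 2.26 (SE 0.68, adjusted p = 0.00456), and 26 of 28 deletion libraries lay above the wild-type median. The wild-type libraries were also shallower, with a median total of 545264.5 counts against 1618485.5, and 3 counts in a library of mean depth came to 1.26 CPM in wild type and 1.05 CPM after deletion. A few deep libraries, of up to 12004992 counts, raise the wild-type mean, so most wild-type libraries had a higher limit. At the median totals the limits lie further apart, with that of wild type the higher. The part of depth in the wild-type zeros was not tested. Tet2 did not pass the filter on low counts in replicate 1 alone, without the 3 libraries that stood apart or with no minimum depth, so it has no test there.

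Tet1 (ENSMUSG00000047146, chromosome 10, positions 62804570 to 62899118), the TET gene known for its expression in the cells of the later embryo and in embryonic stem cells, went the other way. It was present in every wild-type library, from 25.9 through a median of 116 to 213 CPM, and after deletion ranged from 0 in 3 libraries through a median of 24.5 to 149 CPM. Of the 28 deletion libraries, 17 lay below the lowest wild-type library and 26 below the wild-type median. Between the groups Tet1 changed by a log2 value of -1.89 (SE 0.42, adjusted p = 0.000171), with -2.29 in replicate 1 alone and -1.54 in replicate 2 alone. Tet1 and Tet3, 2 genes of the same enzyme family, changed in opposite directions in the same embryos.

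Dppa3 (ENSMUSG00000046323, chromosome 6, positions 122626410 to 122630272), the protector of maternal methylation, fell from a high level. Its lowest, median and highest levels were 1476, 2816 and 11119 CPM in wild type and 236, 735 and 4288 CPM after deletion. There were 17 of 28 deletion libraries below the lowest wild-type library, and the highest deletion value was that of A04. The log2 fold change was -1.50 (SE 0.30, adjusted p = 5.35e-05). The call rests on replicate 2: there the medians were 3085 and 589.6 CPM and the log2 fold change was -1.78 (adjusted p = 0.000486), whereas in replicate 1 alone the medians were 2502 and 1627 CPM and the change was -0.89 (adjusted p = 0.0773). The difference between replicates in this effect was itself not past the threshold (log2 difference -1.04, SE 0.60, adjusted p = 0.397).

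The catalytic methyltransferases did not pass the test. Dnmt1 (ENSMUSG00000004099, chromosome 9, positions 20907206 to 20959888) had medians of 55.3 CPM in wild type and 39.2 CPM after deletion, with a log2 fold change of -0.38 and a 95% interval of -1.09 to 0.32 (adjusted p = 0.366). Dnmt3a (ENSMUSG00000020661, chromosome 12, positions 3806007 to 3914443) had medians of 71.2 and 104 CPM and a log2 change of 0.42 (-0.05 to 0.89, adjusted p = 0.131). In the fit blocked on replicate number Dnmt3a passed, at 0.55 (adjusted p = 0.0309). Dnmt3b (ENSMUSG00000027478, chromosome 2, positions 153649450 to 153687730) was low in both groups, with medians of 10.8 and 13.5 CPM, and its estimate of 0.33 (-0.67 to 1.32, adjusted p = 0.594) changed sign between replicates, from -0.56 in replicate 1 alone to 1.11 in replicate 2 alone. Antisense transcripts overlap Dnmt3a (Dnmt3aos) and Dnmt3b (Dnmt3bos), and both are also lines of the tables.

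Tdg (ENSMUSG00000034674, chromosome 10, positions 82629828 to 82650799), which completes TET-driven demethylation, was near the limit of detection in most libraries and did not pass the filter on low counts. It was above 3 counts in 0 of 22 wild-type and 1 of 28 deletion libraries, in 0 of 15 uninjected, 4 of 20 IgG and 8 of 31 anti-SMARCA5 libraries, and its highest value was 16.4 CPM. The 1 deletion library above 3 counts, in well B04 of replicate 2, held 70 counts. Without the filter, the deletion effect on Tdg differed between replicates by 6.74 on the log2 scale (adjusted p = 0.0307 in edgeR), and the other 27 deletion libraries held 0 counts.

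**Figure D2:**
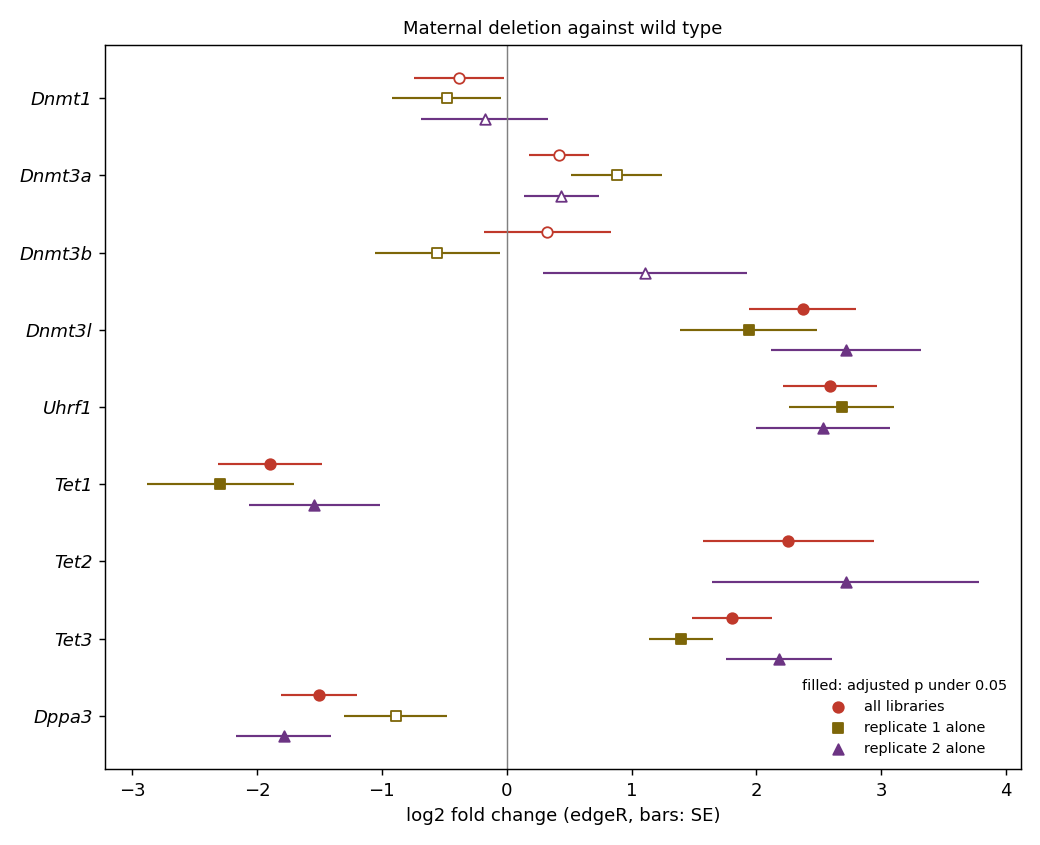
Log2 fold change of the 9 tested genes between maternal deletion and wild type (edgeR, bars are the SE) for all libraries and for replicate 1 and replicate 2 alone; filled symbols have an adjusted p under 0.05. Uhrf1, Dnmt3l and Tet3 lie right of 0 and Tet1 left of it in both replicates, Dppa3 is filled in replicate 2 but not in replicate 1, and Dnmt3b changes side.

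The effect of the deletion was tested for a difference between the 2 replicates, and 0 of 9 members passed (edgeR interaction, 0 also at an unadjusted p under 0.05), where 0.763% of 8518 genes did. Markers of stage moved with the members. Of 13 genes known as stored oocyte transcripts, 12 rose and 0 fell (median log2 fold change 2.95), and their summed level went from a median of 1517 CPM (303 to 8521) in wild type to 14878 CPM (653 to 33492) after deletion. Of 12 tested genes known to be activated at the 2-cell stage, 7 fell and 1 rose (median -1.60). The summed level of all 17 genes counted from that list, tested or not, went from 1354 CPM (764 to 2119) to 382 CPM (114 to 3134). Uhrf1, Dnmt3l, Tet2 and Tet3 therefore had the sign of the first list, and Tet1 and Dppa3 that of the second, although Dppa3 is known as a product of the oocyte as well as of the embryo; the direction alone does not measure which RNA came from the egg, and the part of embryo stage in these results was not tested. Cumulus and granulosa markers summed to a median of 0 CPM in wild type and 13.3 CPM after deletion (highest 74.5), with Inha at 0 in all libraries of both groups and 2 of 9 markers above 3 counts in some wild-type library against 6 of 9 in some deletion library. Sperm markers summed to 0 and 2.77 CPM (highest 36.1), with Prm3 and Tnp1 at 0 in all libraries of both groups and 1 of 7 above 3 counts in some wild-type library against 4 of 7 in some deletion library. Blastocyst markers summed to medians of 60.7 CPM in wild type (highest 181) and 56.2 CPM after deletion (highest 1227). Of 8 markers, 6 were above 3 counts in some wild-type library and 8 in some deletion library. The 1 that was tested, Gata4, fell by 1.96 on the log2 scale.

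Other genes of the methylation machinery were counted from lists by role. Of 16 tested genes for maintenance and methyl donor supply, 2 rose and 6 fell after deletion (median -0.07). Mat2a, which makes the methyl donor S-adenosylmethionine, fell by 2.61 on the log2 scale (adjusted p = 6.17e-06), the folate enzyme Shmt1 fell by 2.36 (adjusted p = 0.000106) and the histone deacetylase Hdac1 fell by 2.25 (adjusted p = 3.43e-05), while the mitochondrial folate enzyme Shmt2 rose by 1.75 (adjusted p = 0.00108). Of 17 genes for oocyte methylation and imprint protection, 3 rose and 6 fell (median -0.05).

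In that list the genes that rose were Nlrp5 (log2 fold change 2.78) and Nlrp4f (1.78), both of the oocyte's NLRP family, and Kdm1b (1.66), the histone demethylase that oocytes need to methylate imprinted genes. The 3 largest falls were Dppa4 (-2.71) and Dppa2 (-2.51), a pair of chromatin regulators of 2-cell genes, and the histone methyltransferase Setd2 (-1.85), which marks transcribed regions for oocyte methylation. Of 8 tested genes in a list of methyl-CG and CG binding protein families, 2 rose and 0 fell (median 0.36), Mbd5 by 1.27. Of 17 tested genes for active demethylation and base excision repair, 1 rose and 6 fell (median -0.48).

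The single rise in the repair list was Smug1 (3.34, adjusted p = 1.4e-08), a uracil DNA glycosylase, and the largest falls were Parp1 (-1.87) and Lig3 (-1.84), which act on DNA breaks, and the abasic site nuclease Apex1 (-1.66). Under the replicate block 3 genes of that list rose, Neil3 and Cul4b in addition to Smug1. All these counts stand beside the 30.3% of genes called higher and 26.4% called lower.

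TrimAway of SMARCA5 gave smaller differences. Against IgG, 0 of 9 tested members passed without the replicate number in the fit (0 also with DESeq2), where 3.03% of 10447 genes passed. At an unadjusted p under 0.05 there were 5 members and 26.4% of all genes. The genes that passed after adjustment numbered 317, against 521 without the C02 library and 0 without replicate 1. In the fit blocked on replicate number 4 passed, Uhrf1, Dnmt3l and Tet3 higher and Tet1 lower, where 25.8% of genes passed. In replicate 1, 0 of 10 IgG libraries but 17 of 17 anti-SMARCA5 libraries had Trim21 RNA above 3 counts. Loss of SMARCA5 and injection of Trim21 therefore cannot be told apart in that replicate, and replicate 2 had no IgG library kept. The members' median log2 fold change was 0.39 without the block, beside 0.04 over all genes.

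Uhrf1 ranged from 35.8 through a median of 75.5 to 130.3 CPM with IgG and from 34.6 through 108 to 241 CPM with anti-SMARCA5. Its log2 fold change was 0.39 (SE 0.18, adjusted p = 0.165) without and 0.61 (SE 0.18, adjusted p = 0.0121) with the block. The groups overlapped over most of their range, with 10 of 31 anti-SMARCA5 libraries above the highest IgG library.

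Tet3 had medians of 161 CPM with IgG (69.5 to 391) and 208 CPM with anti-SMARCA5 (45.4 to 1249). Its log2 change was 0.56 (SE 0.25, adjusted p = 0.137) without and 0.79 (SE 0.23, adjusted p = 0.0109) with the block. The 7 anti-SMARCA5 libraries of replicate 3 had a median of 509.9 CPM (207.7 to 1249), against 181 CPM (82.9 to 455) in replicate 1 and 112 CPM (45.4 to 434) in replicate 2, so the replicates overlapped.

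Dnmt3l had medians of 26.5 CPM with IgG (8.94 to 45.3) and 35.2 CPM with anti-SMARCA5 (20.5 to 137), and 10 of 31 libraries lay above every IgG library. Its log2 fold change was 0.62 (SE 0.21, adjusted p = 0.0732) without and 0.70 (SE 0.22, adjusted p = 0.0191) with the block. The difference from IgG thus passed with the block and not without it. In replicate 1 the medians were 27.3 CPM with IgG and 33.95 CPM with anti-SMARCA5. In replicate 3 they were 19.97 and 53.4 CPM. Without replicate 3 the change was 0.26 (SE 0.26, adjusted p = 0.529), and without replicate 1 it was 0.9999 (SE 0.35, adjusted p = 0.387). The effect differed between replicates 1 and 3 by 1.08 (SE 0.45), which did not pass (adjusted p = 0.241). The uninjected median was 39.9 CPM, above the medians of both groups over all replicates. Dnmt3l with anti-SMARCA5 differed from uninjected by 0.05 (95% interval -0.36 to 0.46, adjusted p = 0.867).

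Tet1 was the member with lower levels, at medians of 99.9 CPM with IgG (34.8 to 237) and 63.8 CPM with anti-SMARCA5 (23.4 to 213). Its log2 change was -0.51 (SE 0.23, adjusted p = 0.141) without and -0.57 (SE 0.22, adjusted p = 0.0477) with the block. The ranges overlapped almost wholly, and 22 of 31 anti-SMARCA5 libraries lay below the IgG median. In replicate 1 the medians were 128.6 CPM with IgG and 84.2 CPM with anti-SMARCA5. In replicate 3 they were 62.8 and 51.7 CPM. Without replicate 1 the Tet1 change was -0.31 (SE 0.31, adjusted p = 0.615), and without replicate 3 it was -0.79 (SE 0.27, adjusted p = 0.0736). The difference in effect between replicates 1 and 3 did not pass (0.29 on the log2 scale, SE 0.45, adjusted p = 0.802).

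Dppa3, which fell after the deletion, did not pass here. Its medians were 901 CPM with IgG (387 to 2087) and 629 CPM with anti-SMARCA5 (215 to 4773), with a log2 change of -0.23 (95% interval -0.77 to 0.32, adjusted p = 0.61). In replicate 1 the medians were 1535 and 812 CPM, and in replicate 3 they were 696 and 588 CPM, but 1 anti-SMARCA5 library of replicate 3, in well G05, reached 4773 CPM. The effect differed between replicates 1 and 3 by 1.78 on the log2 scale (SE 0.55) at an unadjusted p of 0.00217, which was 0.113 after adjustment. Of the 9 members 0 passed that test where 0.366% of 10100 genes passed; 2 members and 15.3% of all genes had an unadjusted p under 0.05.

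Dnmt1, Dnmt3a and Tet2 had IgG and anti-SMARCA5 medians within a few CPM of each other, at 43.0 and 46.2, 69.8 and 69.4, and 6.30 and 7.99 CPM. Dnmt3b had medians of 14.0 and 22.5 CPM, with a log2 change of 0.72 (SE 0.33) that did not pass (adjusted p = 0.156, and 0.0779 with the block). Without the block 0 genes of the 4 lists above passed. With it, 12.1% of all genes were higher and 13.6% lower, and 2 rose and 4 fell of 16 maintenance and methyl donor genes, among them Mat2a (-2.18), Shmt1 (-1.36) and Hdac1 (-1.24). Of 17 oocyte methylation and imprint genes 2 rose, Nlrp4f (0.97) and Kdm1b (0.77), and 6 fell, the largest being Dppa4 (-1.08), Kpna6 (-1.02) and Dppa2 (-0.97). Of 10 genes of the CG binding families 2 rose and 0 fell, and of 19 demethylation and repair genes 0 passed.

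Against uninjected embryos, 1 of 9 members passed, where 27.9% of 10750 genes did. Tet3 had an uninjected median of 137 CPM (64.7 to 239), with 12 of 31 anti-SMARCA5 libraries above the highest uninjected one and a log2 change of 0.82 (SE 0.27, adjusted p = 0.0208). Without replicate 3 the change was 0.40 (adjusted p = 0.286). Without replicate 1 it was 1.17 with a wider error (SE 0.56, adjusted p = 0.231), in a fit where 1 gene in all passed. Tet1 had an uninjected median of 115 CPM (36.9 to 232) and a log2 change of -0.59 (SE 0.23, adjusted p = 0.0506), and it passed without the C02 library, which had no Trim21 counts, at -0.61 (adjusted p = 0.0455).

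Scaling matters in this comparison, because the median of all genes was 0.13 with TMM and -0.29 with library totals alone. With totals, Tet3 was 0.31 (adjusted p = 0.361) and Tet1 -1.01 (adjusted p = 0.00739), so that the single call passed from a higher to a lower member. With the replicate block 2 members passed, where 31.9% of genes did: Tet3 at 0.88 (adjusted p = 0.00872) and Uhrf1 at 0.56 (adjusted p = 0.0289, against 0.108 without the block). Since this comparison and the former one share the anti-SMARCA5 libraries, their values stand side by side and are not independent.

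IgG against uninjected gave 0 of 9 members and 0% of 9915 genes (1440 genes at an unadjusted p under 0.05, 261 genes with DESeq2). The largest member difference was that of Dnmt3l, at -0.57 (SE 0.23, adjusted p = 0.234), where 16 of 20 IgG libraries lay below the uninjected median. Oocyte-stored markers summed to medians of 2165 CPM in uninjected (666 to 3736), 1881 CPM in IgG (1126 to 17878) and 2804 CPM in anti-SMARCA5 libraries (1246 to 27145), and of their 12 tested genes 0 passed against IgG, 1 rose against IgG with the block (Bmp15, 0.99), and 4 rose and 1 fell against uninjected (3 and 1 with the block). Of 15 tested genes activated at the 2-cell stage, 0 passed against IgG, 1 rose and 5 fell against IgG with the block, and 3 rose and 0 fell against uninjected. Of 5 tested blastocyst markers, 1 rose and 1 fell against IgG, and 3 rose and 1 fell against uninjected, among them the keratins Krt8 (2.74) and Krt18 (2.04) and the endoderm factor Gata4 (-1.10). The part of these markers in the TrimAway values was not tested.

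**Figure D3:**
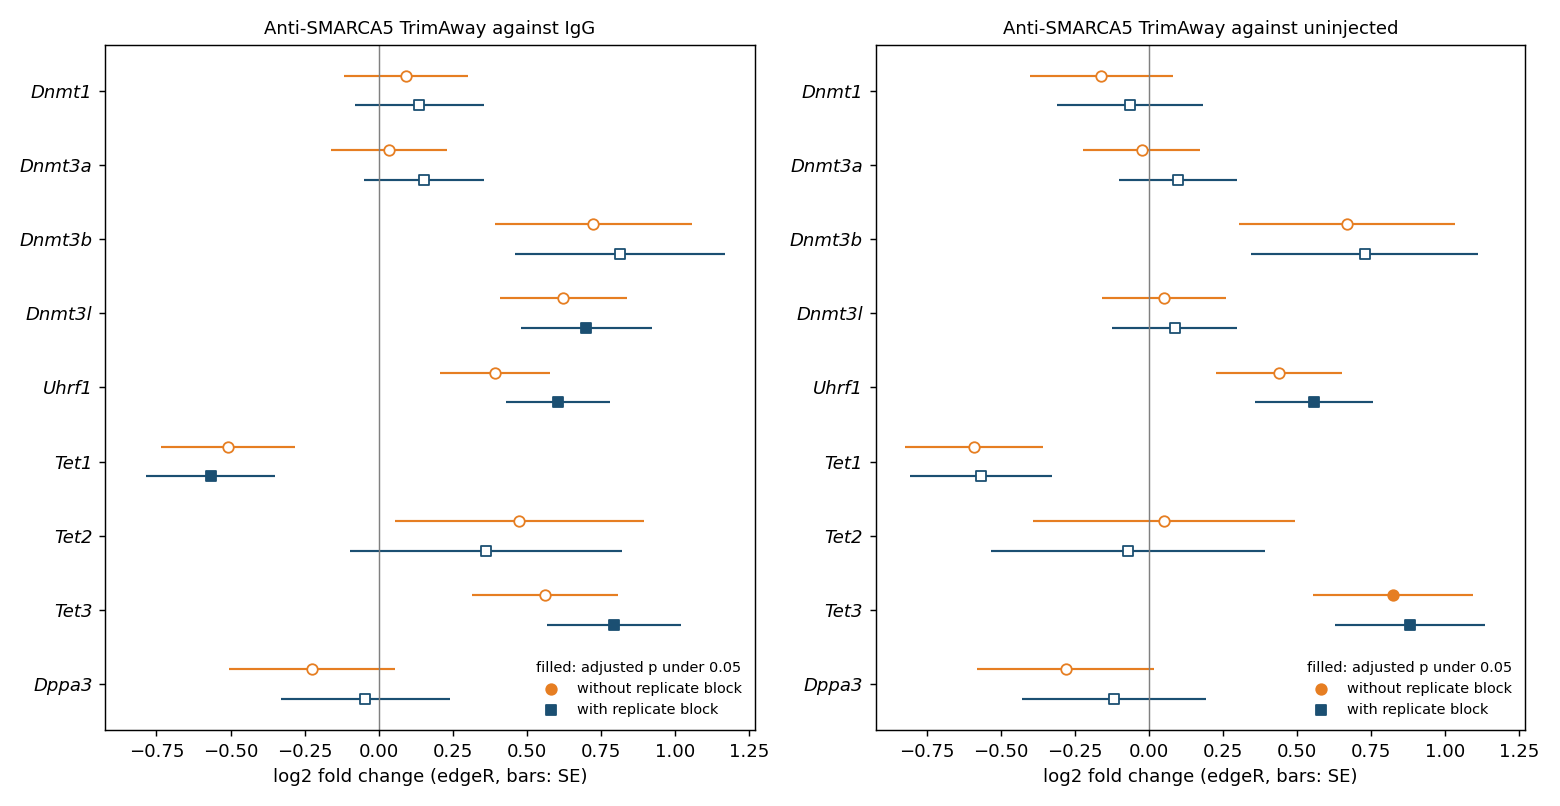
Log2 fold change of the 9 tested genes (edgeR, bars are the SE) for anti-SMARCA5 against IgG on the left and against uninjected on the right, without and with the replicate number as a block; filled symbols have an adjusted p under 0.05. Against IgG, Dnmt3l (0.70), Uhrf1 (0.61), Tet1 (-0.57) and Tet3 (0.79) are filled with the block alone, and against uninjected Tet3 is filled in both fits and Uhrf1 (0.56) with the block alone.

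The effects of maternal deletion and of TrimAway were then compared in 1 fit of the 4 groups, which share no control libraries. The difference of effects passed for 5 of 9 members, where 19.2% of 12035 genes passed. Uhrf1 rose further after deletion by 2.11 on the log2 scale (SE 0.39, adjusted p = 3.16e-05), Dnmt3l by 1.69 (SE 0.46, adjusted p = 0.00541) and Tet3 by 1.12 (SE 0.39, adjusted p = 0.0316). For Tet1 the difference was -1.42 (SE 0.47, adjusted p = 0.0248) and for Dppa3 it was -1.37 (SE 0.41, adjusted p = 0.0134). With replicate numbers as a block the Tet3 difference no longer passed, at 0.93 (adjusted p = 0.0643). With a minimum of 500000 counts a library, neither Tet3 (1.07, adjusted p = 0.0872) nor Tet1 (-1.32, adjusted p = 0.0716) passed. Tet2 did not pass, at 1.68 (SE 0.78, adjusted p = 0.111). The 2 experiments also differ in lane, table and the moment at which SMARCA5 was lost, which cannot be told apart here. In replicate 1 of TrimAway the anti-SMARCA5 but not the IgG libraries had Trim21 RNA above 3 counts. The extent of protein loss was not measured in these data.

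Across all 116 libraries, after the mean of each group and replicate number was removed from log2(CPM + 1), Uhrf1 varied with Tet3 (Pearson r = 0.541) and with Dnmt3l (r = 0.469), and Dnmt3l with Tet3 less (r = 0.279). These values rest in part on the 3 libraries that stood apart: over the other 113 libraries they were 0.326, 0.305 and 0.037. Dnmt1 varied with Dnmt3b (0.304, and 0.307 without those libraries), and Dppa3 opposite to Tet2 (-0.258 and -0.282) and Tet1 (-0.241 and -0.287). The r of the members with the log10 total count ran from -0.056 for Tet3 to 0.124 for Dnmt3l.

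Among 8933 genes with a mean of at least 10 CPM, the closest to Uhrf1 were Gdf9 (r = 0.759, and 0.601 without the 3 libraries), Tm7sf3 (0.74) and Usp28 (0.729). Closest to Tet3 were Siah2 (0.71), Tcl1b1 (0.703) and Mapk6 (0.702), to Dppa3 Rbx1 (0.706), Asf1b (0.62) and Med27 (0.619), and to Dnmt3l Tprgl (0.641), Klhdc3 (0.641) and Kif17 (0.635). For Tet1 they were Sfi1 (0.595), Smg5 (0.574) and Phrf1 (0.56), and for Dnmt1 Ezh1 (0.512), Ccnl2 (0.473) and Smcr8 (0.459). Dnmt3a was closest to Dnahc17 (0.5), Prelid1 (0.48) and Npm3 (0.478), Dnmt3b to Acly (0.492), Pan2 (0.476) and Setd1a (0.46), and Tet2 to Gpr50 (0.472), Heatr5b (0.463) and Msn (0.461). Libraries share plates, lanes and depth, so these values describe likeness of pattern only.

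**Figure D4:**
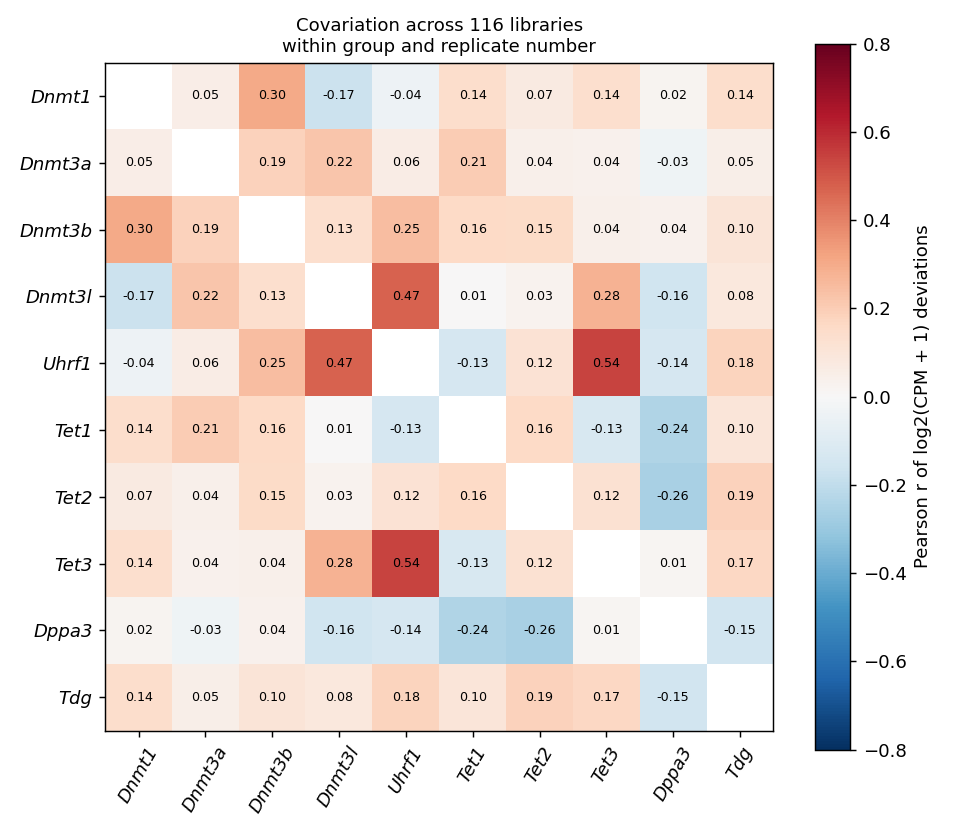
Pearson r between the 10 genes across the 116 libraries, computed on log2(CPM + 1) after removing the mean of each group and replicate number; red is positive and blue negative. The highest value is that of Uhrf1 with Tet3 (0.541) and the lowest that of Dppa3 with Tet2 (-0.258).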

How the data were processed

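Polyadenylated RNA of 2-cell embryos was counted per gene in 2 tables that the authors deposited as raw read counts, not normalized. Per the submitters' processing notes, reads were trimmed with Trim Galore 0.6.5 and cutadapt 2.3 and aligned to GRCm38 with HISAT2 2.1.0. The annotation release and the handling of strand, multiple matches, read pairs and duplicates are not given in the sources used here. Among counts of 1 to 4 in the kept libraries, odd values outnumbered even ones (134662, 30228, 84269 and 23199 values), and what 1 count stands for is not stated. Of 135 embryo libraries, the 116 with at least 100000 counts were kept; all 6 IgG libraries of replicate 2 fell below this, and 3 wells had no embryo. No libraries of a group were identical, with a chi-square of at least 4.53 per degree of freedom between any pair.

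Each comparison was fitted on its own groups with edgeR 4.0.16 in R 4.3.3 (TMM, filterByExpr, robust quasi-likelihood F test, Benjamini-Hochberg adjustment over all genes tested, threshold 0.05); SE is the log2 fold change over the root of F. Only the fit of maternal deletion against wild type, without the block, was also run on simulated counts. In those counts far fewer genes changed than were called in the data. Levels are CPM scaled by TMM over all kept libraries, and a level of 3 counts or fewer was treated as not detected. Exon lengths came from the GENCODE annotation of GRCm38. Alternatives were library totals, DESeq2 1.42.0, no low-count filter, other depth minima, a replicate block and left-out replicates or libraries. Replicate numbers are those of the titles. In the deletion experiment each number had its own lane, shared by both groups. The TrimAway libraries were all on 1 lane, and the labels do not state a pairing of their groups. Same-numbered group means deviated together with r = 0.515 (deletion), 0.631 (anti-SMARCA5 and IgG) and 0.418 (IgG and uninjected). For anti-SMARCA5 and uninjected they hardly did (r = 0.091), so the block has little footing in that comparison. Named genes were all members, Smarca5, Trim21, of each list the 3 largest rises and falls among called genes whose mean log2 CPM reached 4, and for each member the 3 genes of highest r. Members, lists and tests were chosen with earlier results of these data known.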

Additional observations from a re-analysis of the deposited data

Results flagged for a closer look

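The change of maternal deletion against wild type differed from that of anti-SMARCA5 against IgG, by a test of the difference itself, for 5 members. The difference in log2 fold change was 2.11 for Uhrf1, 1.69 for Dnmt3l, 1.12 for Tet3, -1.42 for Tet1 and -1.37 for Dppa3 (edgeR contrast of 4 groups, 19.2% of all genes tested passed). In each case the deletion effect was the larger in size. Tet3 did not pass with the replicate block (0.93, adjusted p = 0.0643), and neither Tet3 (adjusted p = 0.0872) nor Tet1 (adjusted p = 0.0716) passed at a minimum of 500000 counts, which left 3 members.

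A well without an embryo, H03, held 21 Dppa3 counts among 1875, or 11200 CPM (95% Wilson interval 7337 to 17060, counting error only), together with 2 Uhrf1 counts and 1 Dnmt1 count. The other wells without an embryo held 1 Dppa3 count among 823 and 1 Dnmt3l count among 453. These totals are far below the 100000 counts required of an embryo library.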

How the results depend on the processing

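The 6 calls after maternal deletion kept their direction in every alternative in which the gene was tested, and kept the call except for Dppa3 in replicate 1 alone; Tet2 was not tested in 4 alternatives. Genes called numbered 4825, 10416 without a low-count filter, 5035 without wells A04, G05 and H05, 5095 without H09 and C07 as well and 2801 to 3879 with 1 replicate number left out. For anti-SMARCA5 against IgG, genes called were 317, and 64 with library totals (17 higher and 47 lower, against 181 and 136 with TMM), 1007 with DESeq2, 3010 without a filter, 623 with no minimum depth, 150.0 at 500000 counts, 2691 with the replicate block, 521 without well C02 and 0 to 591 with a replicate left out, the 0 being without replicate 1. Members called there were 1 with no minimum depth and 4 with the replicate block, and 0 otherwise. For anti-SMARCA5 against uninjected, 2999 genes were called, 6184 without a filter, 2998 without well C02 and 1 to 2921 with a replicate left out, the 1 being without replicate 1; library totals gave 409 higher and 1874 lower, against 1885 and 1114. Members called there were 1, but 2 with DESeq2, without a filter, at 500000 counts, with the replicate block and without well C02, and 0 to 2 with a replicate left out. IgG against uninjected gave 261 genes with DESeq2, 881 without a filter and 0 to 1 with a replicate left out. The replicate difference in the deletion effect gave 1 member, Tdg, without a filter, and the difference of deletion and TrimAway effects 3 members at 500000 counts (5 before) and 4 with the block. The block changed no other member call than those given with the results.

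Signs of small estimates changed, with log2 values as follows. Dnmt3b after deletion ran from -0.56 without replicate 2 to 1.107 without replicate 1. Against IgG with 1 replicate number left out, Dnmt1 ran from -0.074 to 0.194, Dnmt3a from -0.094 to 0.162 and Dppa3 from -0.898 to 0.54. Also against IgG, Dnmt1 was -0.14 with totals, and Dnmt3a was -0.13 with totals, -0.023 with DESeq2 and -0.002 without a filter. Against uninjected with a replicate number left out, Dnmt1 ran from -0.295 to 0.01, Dnmt3a from -0.12 to 0.12, Dnmt3l from -0.18 to 0.3, Tet2 from -0.053 to 0.354 and Dppa3 from -0.755 to 0.54. There Dnmt3a was 0.10 with the replicate block, Dnmt3l was -0.38 with totals and -0.063 with DESeq2, and Uhrf1 was -0.001 with totals. Tet2 was -0.51 with totals, -0.03 with DESeq2, -0.07 at 500000 counts and -0.071 with the replicate block. For IgG against uninjected with a replicate number left out, Dnmt3a ran from -0.068 to 0.03, Dnmt3b from -0.159 to 0.261, Uhrf1 from -0.041 to -0.014, Tet1 from -0.607 to 0.323 and Dppa3 from 0.005 to 0.172. There Dnmt3b was 0.054 with no minimum depth and 0.053 at 500000 counts, Uhrf1 was -0.205 with totals, -0.001 with no minimum depth and -0.032 with the replicate block, Tet3 was -0.027 with totals and Dppa3 was 0.098 with the replicate block. With totals, the replicate differences of Dnmt1 (deletion), Dnmt3a and Dnmt3b (anti-SMARCA5 against IgG) were -0.066, -0.13 and -0.014. The cause was not tested. DESeq2 was not run on the differences of effects. The covariation values without 3 libraries, and the deletion fit without 5, were added after the data had been seen. Low counts limit Tdg, Tet2 and Dnmt3b.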
